A study of Mus musculus with 12 samples.

Results

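The genes described here encode molecules of the brain extracellular matrix, measured in the striatum of mouse embryos at embryonic day 18.5. They are the secreted glycoprotein gene Reln, the tenascin genes Tnr and Tnc, the lectican genes Vcan, Ncan and Bcan, the membrane proteoglycan genes Cspg5 and Ptprz1, the spondin gene Spon1 and the protease gene Adamts9. Each was found by its gene identifier in the deposited table, and all 10 were present, each as 1 of 25428 probe sets. They were put together by name and function, with earlier results of the WT and cKO comparison in view, so their differences between genotypes are given as a description and are no independent evidence.

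Striata of both hemispheres came from 12 embryos on the C57BL/6J background, with 1 single-colour array per embryo. The 6 wild-type embryos are called WT. The 6 embryos labelled Nestin-Cre (Foxp1-/-) are called cKO. They carried Cre recombinase under Nestin, which acts in neural progenitors and so reaches neurons and macroglia rather than vessels or microglia, and are labelled as lacking Foxp1, which encodes a forkhead factor of striatal projection neurons. The labels do not say whether the WT embryos carried Cre or a modified Foxp1 allele, so an effect of Cre and one of Foxp1 loss cannot be told apart. The samples are titled biological replicates. Values are RMA log2 expression, a scale on which 1 unit is a 2-fold difference, and a difference is always cKO minus WT.

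The matrix of the embryonic brain contains little fibrillar collagen. Hyaluronan chains carry lecticans, which are chondroitin sulphate proteoglycans, link proteins hold both together, and tenascins bridge the lecticans. Proteases of the ADAMTS family cut lecticans as tissue matures, and Reelin, the product of Reln, is deposited in the same space as a positioning signal for migrating neurons. After birth several of these molecules, Tnr and the lecticans among them, join the perineuronal nets around neurons.

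The sequence upstream of the transcription start was available for 8 of the 10 genes, from RefSeq on GRCm38.p6. The windows cover the 250 bases before each annotated start. Windows are printed for 4 genes that passed the threshold described below, because they range from one of the most CpG-rich starts in the table to a CpG-poor one. Each is written 5′ to 3′ on the strand of its gene, with every CpG dinucleotide in capitals. The positions are chr5:22344706-22344955, minus strand, for Reln, chr6:92943535-92943784, minus strand, for Adamts9, chr13:89742513-89742762, minus strand, for Vcan, and chr1:159523519-159523768, plus strand, for Tnr.
Reln: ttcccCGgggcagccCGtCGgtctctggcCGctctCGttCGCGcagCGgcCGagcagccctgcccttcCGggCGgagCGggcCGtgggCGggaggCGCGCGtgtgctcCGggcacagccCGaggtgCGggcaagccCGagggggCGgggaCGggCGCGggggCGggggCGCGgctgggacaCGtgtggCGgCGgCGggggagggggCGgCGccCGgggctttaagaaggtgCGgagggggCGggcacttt
Adamts9: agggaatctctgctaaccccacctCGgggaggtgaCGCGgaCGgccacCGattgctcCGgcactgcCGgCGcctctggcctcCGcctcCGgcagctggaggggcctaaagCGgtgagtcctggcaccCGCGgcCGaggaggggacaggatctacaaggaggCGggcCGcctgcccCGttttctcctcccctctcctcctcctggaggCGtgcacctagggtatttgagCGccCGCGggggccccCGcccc
Vcan: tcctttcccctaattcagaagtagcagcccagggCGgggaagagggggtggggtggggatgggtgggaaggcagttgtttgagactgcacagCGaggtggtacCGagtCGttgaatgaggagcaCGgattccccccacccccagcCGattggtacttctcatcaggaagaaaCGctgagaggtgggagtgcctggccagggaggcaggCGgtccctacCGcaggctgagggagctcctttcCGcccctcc
Tnr: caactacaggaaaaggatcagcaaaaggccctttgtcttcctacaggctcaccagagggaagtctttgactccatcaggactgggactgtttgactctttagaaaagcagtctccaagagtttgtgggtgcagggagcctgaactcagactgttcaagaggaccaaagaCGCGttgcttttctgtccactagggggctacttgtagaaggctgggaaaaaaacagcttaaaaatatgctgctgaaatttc

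The Reln window holds 37 CpG dinucleotides and 80.0% G and C, and 2.20% of all 32851 windows in the table hold as many CpG or more. Adamts9 has 22 CpG, Vcan 10 and Tnr 2, against a median of 6 over all windows. Both genes that fell, Reln and Vcan, lie above that median, and so does Adamts9, which rose, while Tnr, which rose as well, lies below it. These genes are few and were chosen with their directions known, and Spon1 had no window, so nothing about direction is read from CpG content. Among the genes that did not pass, Ptprz1 had 22 CpG, Bcan 16 and Ncan 6, and the 2 annotated starts of Tnc had 8 and 10. The windows were also searched on both strands for 3 spellings of the forkhead motif. The first was TGTTTAC, held by 3.17% of all windows. The second was TGTTTAT, held by 4.16%, and the last was TATTTAC, held by 2.73%. None of the 9 windows of the members held any of the 3, beside 9.45% of all windows. That says only that these letters are not in these windows.

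Foxp1 spanned 10.89 to 11.39 in WT and 10.14 to 10.36 in cKO, without overlap. It was 1.88-fold lower in cKO but remained far above the median probe set level of 5.71, and the labels do not say which part of the gene was deleted. All arrays correlated at 0.992 to 0.998. Defining markers of striatal projection neurons were also above that level, with a mean over 12 measured genes of 8.93 to 9.24 in WT and 8.80 to 8.98 in cKO. On the array of cKO replicate 1, Ttr, the transthyretin gene of the choroid plexus, read 9.96 against 5.39 to 5.57 on the other 11, while the 6 other markers of choroid plexus and ependyma read 5.52 to 5.71 there. The members that passed the threshold did so without this array too.

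In the fit across all probe sets (limma, Benjamini-Hochberg adjusted p below 0.05), 5 of the 10 genes passed. Tnr, Spon1 and Adamts9 rose and Reln and Vcan fell. Over all probe sets 0.728% passed, 0.299% higher and 0.429% lower. For these same 5 genes the 6 cKO arrays did not overlap the 6 WT arrays, which was so for 1.38% of all probe sets. As the genes were assembled with this comparison in view, nothing is read from these counts. The median difference over the 10 genes was 0.044 and the median absolute difference 0.25, beside -0.00077 and 0.021 over all probe sets. As a description only, the differences of the members were of both signs.

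**Figure D1:**
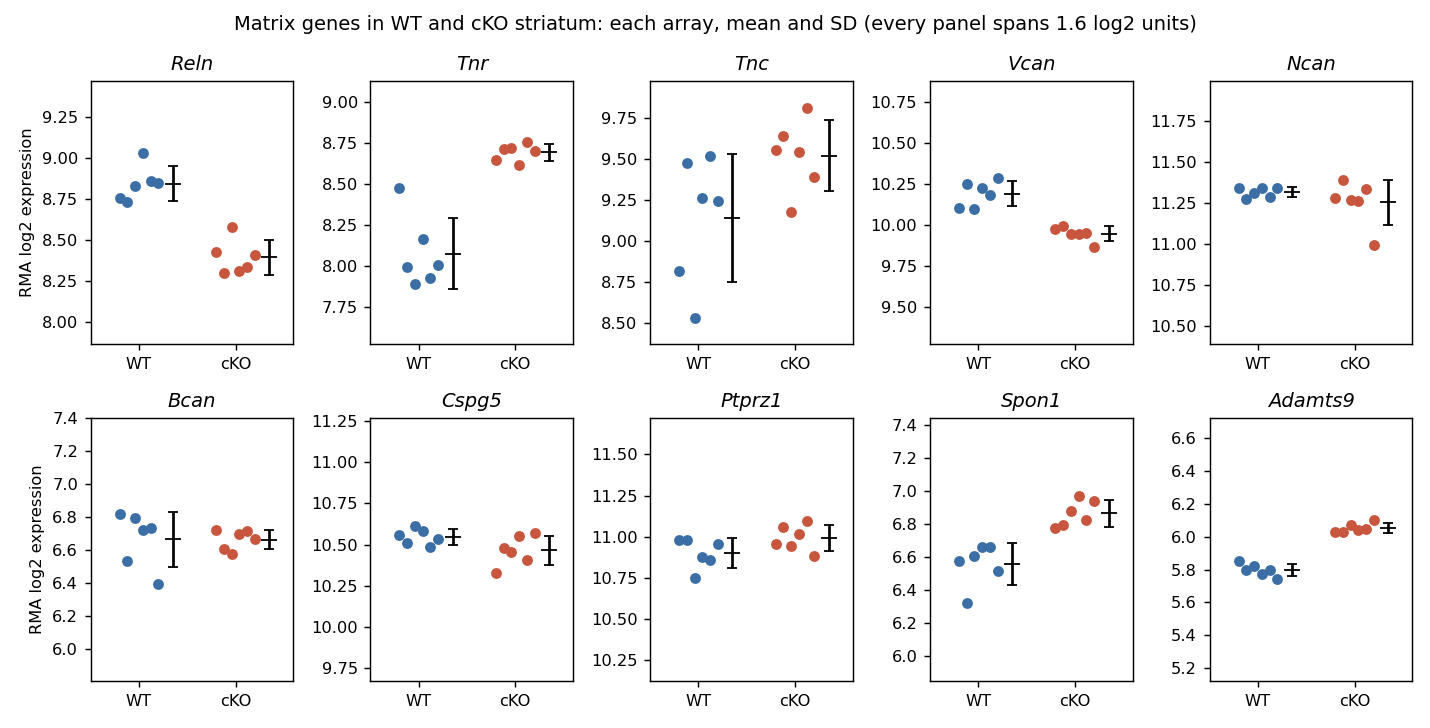
RMA log2 expression (vertical axis) of the 10 matrix genes in each array, WT in blue and cKO in red, with the mean and SD of each group of 6 as a bar at its side. Every panel spans the same number of log2 units, so the gaps can be compared between genes, while the levels of different genes cannot. The groups are apart for Reln, Tnr, Vcan, Spon1 and Adamts9 and overlap for the other 5.

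Reln encodes Reelin, which is secreted by Cajal-Retzius cells at the cortical surface and by several classes of GABAergic neuron, and which binds the receptors Vldlr and Lrp8. Its log2 expression in WT ran from 8.73 to 9.03 with a median of 8.84. In cKO it ran from 8.30 to 8.58 with a median of 8.37. The highest cKO array lay under the lowest WT array. The difference was -0.45 ± 0.06 (SE), with a 95% interval of -0.57 to -0.32, or 1.36-fold lower. In whole tissue, fewer cells of a type and less RNA per cell cannot be told apart, here and in what follows.

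The cells that make Reelin could have differed in number between the dissected tissues, so markers of these and other neurons are set beside it. Without Reln, 8 markers of Cajal-Retzius cells averaged 5.84 to 6.00 in WT and 5.91 to 6.00 in cKO, and 6 of the 8 lay below the median probe set, so these arrays carry little signal for that cell type. Their mean was 5.90 in WT and 5.95 in cKO, with 0 passing in limma and 1 higher at an unadjusted p below 0.05 (Cacna2d2). Markers of interneurons of the medial ganglionic eminence, 9 measured, averaged 8.37 to 8.48 in WT and 8.44 to 8.55 in cKO. Their mean was 8.44 in WT and 8.51 in cKO, and in limma 1 gene was higher (Maf) and 1 lower (Cxcr4). An unadjusted p below 0.05 was reached by 2 higher genes (Maf and Erbb4) and 1 lower gene. Cortical glutamatergic markers, 8 measured, averaged 6.36 to 6.69 in WT and 6.35 to 6.996 in cKO. By their mean they were higher in cKO (6.53 in WT and 6.71 in cKO), and all 8 had a positive difference. In limma 0 passed, and an unadjusted p below 0.05 was reached by 2, both higher (Neurod6 and Neurod2), beside 10.7% of all probe sets. Markers of striatal projection neurons, 12 measured, were lower in cKO by their mean (9.10 in WT and 8.91 in cKO) and by a median difference of -0.18. Of these 12, Pde10a fell in limma, 0 rose, and an unadjusted p below 0.05 was reached by 6 lower genes and 1 higher gene, beside 10.7% of all probe sets. Within genotypes Reln followed this list at r = 0.57 (permutation p = 0.0583, adjusted p = 0.34; rho = 0.50, permutation p = 0.129, adjusted p = 0.600; 12 arrays), and at r = 0.27 without the 2 arrays farthest from the median of Reln. The part of these lists in the fall of Reln was not tested.

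Of 11 measured genes for its receptors and signalling, 0 passed in limma, while an unadjusted p below 0.05 was reached by 1 higher and 2 lower genes, beside 10.7% of all probe sets, and the median difference was -0.025. The differences of the 11 ran from -0.10 to 0.13. Lrp8, a Reelin receptor, had a difference of 0.09 ± 0.03 (SE, limma adjusted p = 0.194), and Itga3, an integrin subunit that binds Reelin, one of -0.07 ± 0.03 (SE, limma adjusted p = 0.408).

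Tnr encodes tenascin-R, made by oligodendrocyte precursors and some neurons, which cross-links lecticans. Its WT arrays ran from 7.89 to 8.48 with a median of 7.998, and its cKO arrays from 8.62 to 8.76 with a median of 8.71. The rise was 0.62 ± 0.08 (SE), 95% interval 0.43 to 0.80, or 1.53-fold, and was number 5 in size among the 76 probe sets that rose. The WT arrays were more spread (SD 0.22, n = 6) than the cKO arrays (SD 0.05, n = 6), mainly through WT replicate 1 at 8.48. Without that array the difference was 0.70.

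Tnc encodes tenascin-C, the tenascin of radial glia and young astrocytes. Its WT arrays ran from 8.53 to 9.51 with a median of 9.25, and its cKO arrays from 9.18 to 9.81 with a median of 9.55. The groups overlapped, although all 6 cKO arrays lay above the WT mean. The difference of 0.38 ± 0.17 (SE), 95% interval 0.01 to 0.75, did not pass over all probe sets. Tnc had the widest spread of the 10 genes in both groups, with an SD of 0.39 in WT and 0.22 in cKO (n = 6 each), and a difference as large as that of Tnr lies within its interval. The remaining tenascin genes measured, Tnn and Tnxb, did not pass.

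Vcan encodes versican, the large lectican of the embryonic matrix. It spanned 10.10 to 10.29 in WT (median 10.20) and 9.87 to 9.996 in cKO (median 9.95). Again no cKO array reached the WT range. The fall was -0.24 ± 0.03 (SE), 95% interval -0.32 to -0.17, or 1.18-fold, a small change carried by a small spread. Ncan and Bcan encode neurocan and brevican, lecticans specific to the nervous system. Ncan spanned 11.27 to 11.34 in WT and 10.99 to 11.39 in cKO, and Bcan from 6.39 to 6.82 and from 6.58 to 6.72. Their differences were -0.06 ± 0.05 and -0.003 ± 0.07 (SE), with 95% intervals of -0.18 to 0.06 and -0.15 to 0.15. The interval of Ncan takes in -0.17, the bound of Vcan nearest 0, and neither gene passed. The array summarises each gene in 1 value, so splice forms of versican, which differ in the number of chondroitin sulphate chains, are not separated.

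Cspg5 and Ptprz1 encode membrane-bound chondroitin sulphate proteoglycans, neuroglycan C and a receptor tyrosine phosphatase whose secreted form is phosphacan. Cspg5 spanned 10.48 to 10.61 in WT and 10.33 to 10.57 in cKO, a difference of -0.08 ± 0.04 (SE), 95% interval -0.17 to 0.004. Ptprz1 spanned 10.75 to 10.98 in WT and 10.88 to 11.10 in cKO, a difference of 0.09 ± 0.05 (SE), 95% interval -0.01 to 0.19. Both sets of arrays overlapped and neither gene passed. Markers of the glia that express many of these proteoglycans are set beside them. Over 9 measured genes of the oligodendrocyte lineage the mean was 6.33 to 6.56 in WT and 6.41 to 6.49 in cKO, with 0 passing in limma and 0 at an unadjusted p below 0.05. Astrocyte markers, 10 measured, averaged 7.30 to 7.50 and 7.35 to 7.47, with 0 passing and 1 lower at an unadjusted p below 0.05, Sox9 at -0.36. Radial glia and progenitor markers, 10 measured, averaged 8.38 to 8.66 and 8.52 to 8.72, with 0 passing and 3 higher at an unadjusted p below 0.05, among them Sox2 at 0.37 and Nes at 0.23. The share of all probe sets at that p was 10.7%. Sox9, Sox2 and Nes were chosen after their values were seen, and the part of these cells in the members' differences was not tested. With the oligodendrocyte lineage level as a covariate, the same 5 members passed. That level had nearly the same mean in both genotypes (6.46 in WT and 6.45 in cKO), so nothing is read from this. With the cortical marker level as the covariate, Spon1 did not pass.

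Spon1 encodes F-spondin, a secreted adhesion protein of the developing floor plate and nervous system. It spanned 6.32 to 6.66 in WT (median 6.59) and 6.77 to 6.97 in cKO (median 6.85), without overlap. The rise was 0.31 ± 0.06 (SE), 95% interval 0.18 to 0.44, or 1.24-fold. This call stood near the threshold and held in 10 of 23 alternatives. It was lost without WT replicate 1, 3 or 6, without cKO replicate 2, 3, 4, 5 or 6, without WT replicates 3 and 6 together, with the Y-linked or cortical marker level as a covariate with the replicate block and at the stricter threshold, while its difference stayed between 0.26 and 0.33.

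Adamts9 encodes a secreted metalloprotease that cleaves versican and is also expressed by vessels. It spanned 5.75 to 5.85 in WT (median 5.80) and 6.03 to 6.10 in cKO (median 6.04), again without overlap. The rise was 0.25 ± 0.02 (SE), 95% interval 0.21 to 0.30, or 1.19-fold, with the smallest SE of the 10 genes. Its WT level lay close to the median probe set of 5.71. RMA compresses differences of dim genes, so the fold may be understated, which was not tested. Markers of endothelial cells and pericytes, 10 measured, averaged 6.74 to 6.83 in WT and 6.78 to 6.85 in cKO, with 0 passing in limma and 2 higher at an unadjusted p below 0.05. Their part in the rise was not tested. Adamts9 lies on chromosome 6, as Foxp1 does, with 15 protein-coding genes annotated between them. Of the 14 that were measured, 0 passed in limma and 2 had an unadjusted p below 0.05, beside 10.7% of all probe sets. Their differences ran from -0.04 to 0.14, below that of Adamts9. Genes on the far side of Foxp1 were not summarised here. Whether the position of Adamts9 near the altered locus bears on its rise was not tested.

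**Figure D2:**
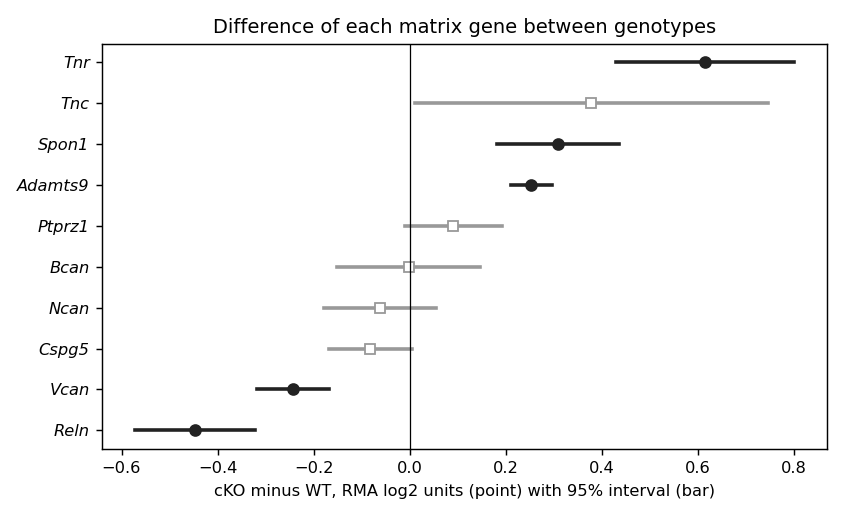
Difference between cKO and WT in RMA log2 units (point) with limma's 95% interval (bar) for each gene, ordered by size. Filled circles passed the threshold over all probe sets and open squares did not. Tnr at 0.62 and Reln at -0.45 mark the ends, and Tnc has the widest interval.

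The 10 genes were next compared with each other from embryo to embryo, after each array's value was set against the mean of its own genotype. This removes the difference on which the genes were chosen. Of 45 pairs, 5 had an unadjusted permutation p below 0.05 and 1 passed after Benjamini-Hochberg adjustment over the 45. Pearson's r had a median of -0.03 and ran from -0.91 to 0.69, with 20 pairs above 0. Pairs that varied together and pairs that varied oppositely were thus about equally common.

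The pair that passed was Vcan and Adamts9, compared here as RNA levels. Arrays with more Vcan had less Adamts9, at r = -0.91 (permutation p = 0.00033, adjusted p = 0.0148, 12 arrays) and Spearman's rho = -0.79 (permutation p = 0.00825, adjusted p = 0.338). The relation was r = -0.90 within WT and r = -0.95 within cKO, 6 arrays each. It was -0.94 without the 2 arrays farthest from the median of Vcan. Leaving out single arrays gave -0.95 to -0.87, and the adjusted p missed the threshold without WT replicate 6 (permutation adjusted p = 0.0855) or cKO replicate 6 (permutation adjusted p = 0.175). Adamts9 varied little, with an SD of 0.04 in WT and 0.03 in cKO (n = 6 each), so the relation rests on differences of a few hundredths of a log2 unit.

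The next pairs by unadjusted p did not pass. Vcan and Bcan, both lecticans, had r = -0.74 (permutation p = 0.0278, adjusted p = 0.341; rho = -0.69, permutation p = 0.0444, adjusted p = 0.338), and r = -0.40 without the 2 arrays farthest from the median of Vcan. When the 2 farthest arrays are picked after centring, r without them is -0.55. Ncan and Ptprz1 had r = 0.55 (permutation p = 0.0345, adjusted p = 0.341) and rho = 0.50 (permutation p = 0.109, adjusted p = 0.387). Ncan and Adamts9 had r = -0.54 (permutation p = 0.0381, adjusted p = 0.341) and rho = -0.63 (permutation p = 0.0326, adjusted p = 0.338). Without the 2 arrays farthest from the median of Ncan, r was 0.35 with Ptprz1 and -0.14 with Adamts9. Tnc and Vcan had r = 0.69 (permutation p = 0.0387, adjusted p = 0.341; rho = 0.59, permutation p = 0.0979, adjusted p = 0.387), and r = 0.14 without the 2 arrays farthest from the median of Tnc, but r = 0.67 without the 2 farthest after centring. How far the relations of Vcan with Bcan and with Tnc rest on single arrays thus depends on how those arrays are picked. Reln and Tnr, at the ends of the range of differences, showed no relation past the threshold within genotypes, with r = -0.04 (permutation p = 0.897, adjusted p = 0.945; rho = 0.14, permutation p = 0.697, adjusted p = 0.926).

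**Figure D3:**
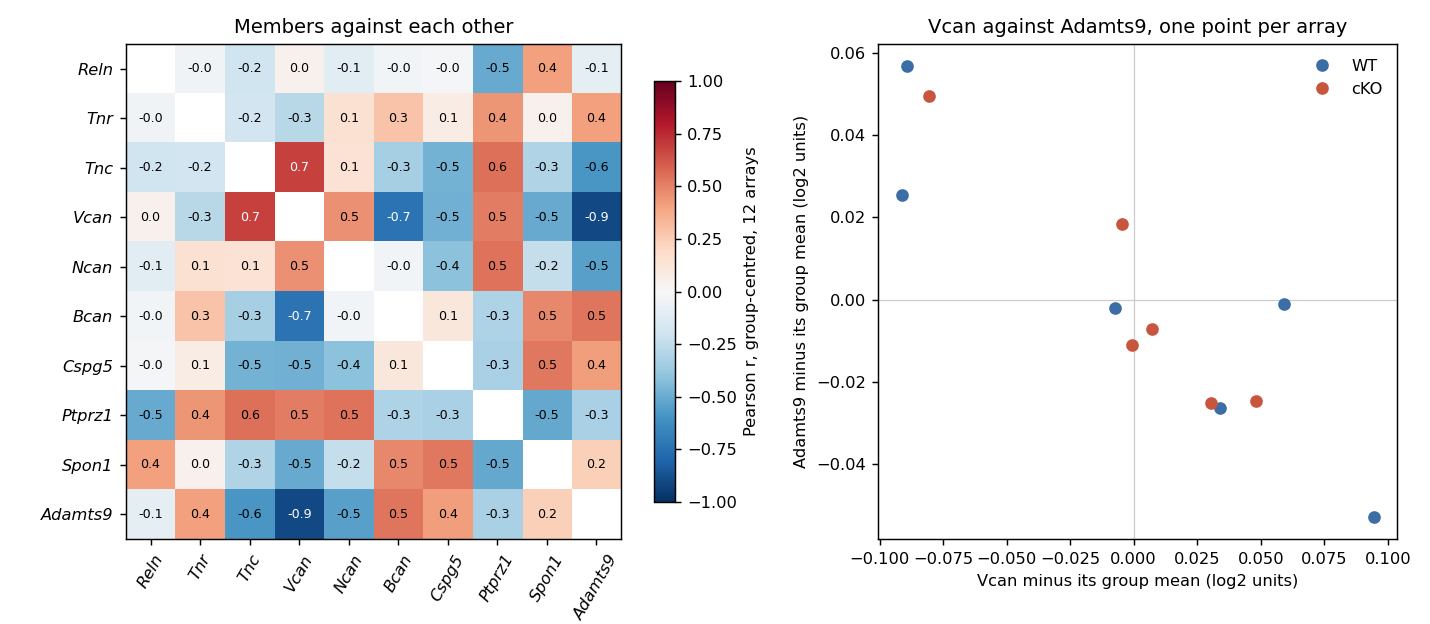
Left, Pearson r between every pair of the 10 genes over 12 arrays after removal of the genotype means, from -1 in blue to 1 in red. Right, Vcan against Adamts9 in log2 units from the genotype mean, 1 point per array, WT in blue and cKO in red. The 2 genes run opposite ways in both genotypes, at r = -0.90 in WT and r = -0.95 in cKO.

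The same was done between the 10 genes and the mean levels of 7 marker lists, a family of 70 relations added after the data were seen. Before adjustment 11 had a permutation p below 0.05, and 0 passed after adjustment. The smallest permutation p for r was that of Cspg5 with the radial glia and progenitor level (r = -0.70, permutation p = 0.00585, adjusted p = 0.287). Without the 2 farthest arrays that r was -0.91. The largest positive r was that of Bcan with the oligodendrocyte lineage level (r = 0.79, permutation p = 0.018, adjusted p = 0.287). Without the 2 farthest arrays it was 0.15. Singled out after their values were seen, Vcan ran against the oligodendrocyte lineage level at r = -0.80 (permutation p = 0.00976, adjusted p = 0.287; rho = -0.93, permutation p = 0.00166, adjusted p = 0.116), and r = -0.59 without the 2 farthest arrays. Adamts9 followed that level at r = 0.66 (permutation p = 0.0408, adjusted p = 0.29), and r = 0.34 without the 2 farthest arrays. With the Cajal-Retzius level r was -0.65 for Vcan (permutation p = 0.0481, adjusted p = 0.306) and 0.675 for Adamts9 (permutation p = 0.0304, adjusted p = 0.29). For Vcan this r was -0.84 within WT and -0.04 within cKO, and -0.37 without the 2 farthest arrays. For Adamts9 it was 0.83 within WT and 0.34 within cKO. Without the 2 farthest arrays it was 0.58, or 0.29 when these were picked after centring. The part of these levels in the relation of Vcan and Adamts9 was not tested. Tnc followed the radial glia and progenitor level at r = 0.74 (permutation p = 0.0141, adjusted p = 0.287; rho = 0.73, permutation p = 0.0162, adjusted p = 0.377), and r = 0.53 without the 2 farthest arrays.

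Among 12277 other named probe sets above the median level, those most like each member from array to array were picked by the same group-centred r over 12 arrays, as a description without a test. They were Sin3b for Reln (0.92), Nbas for Tnr (0.95), Pdcd4 for Tnc (0.98), Rnaseh2b for Vcan (0.95) and Tmem165 for Ncan (0.85). For Bcan the closest was Cryzl1 (0.94), for Cspg5 Tppp (0.90), for Ptprz1 Iqgap2 (0.92), for Spon1 Serinc4 (0.91) and for Adamts9 B4galt7 (0.94). The second in line were Mirlet7a-1, Dip2c, Sstr2, Cox17, Gm5519, Gosr2, Plppr5, Lsm12, Nt5c and Dusp15, in the same order of members. Of these 20, B4galt7, an enzyme of the linker on which chondroitin sulphate is built, is on the matrix lists below, and its own difference between genotypes was -0.01. The highest r among 12277 candidates over 12 arrays is large by selection alone, so none of these is read as a relation.

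Beyond the 10 genes, 8 lists of other matrix genes were examined, 120 measured of 122. In limma 0 rose and 1 fell, or 0.833%, close to the 0.728% of all probe sets. At an unadjusted p below 0.05 there were 15 higher and 11 lower, or 21.7%, beside 10.7% of all probe sets. The median difference was 0.0058 and the median absolute difference 0.030. Of the 120 genes, 41 lay below the median level, where little change can be seen.

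The gene that fell was Chst15, which encodes a sulphotransferase that adds a second sulphate to chondroitin sulphate and so makes its E form. Its log2 expression spanned 6.53 to 6.87 in WT (median 6.77) and 6.20 to 6.39 in cKO (median 6.31). The groups did not overlap. The fall was -0.45 ± 0.06 (SE), or 1.36-fold, with a limma adjusted p of 0.00662. Chst15 also passed under every one of the 23 alternatives, with adjusted p from 0.000431 to 0.0464. It was the only one of 20 genes of chondroitin sulphate synthesis to pass in limma. At an unadjusted p below 0.05, 1 of the 20 was higher and 4 lower, and the list median was 0.0048.

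For hyaluronan and its links, 0 of 13 passed in limma while an unadjusted p below 0.05 was reached by 3 higher genes and 1 lower gene, with Hapln3, a link protein gene, at 0.04 ± 0.01 (SE, limma adjusted p = 0.358) and the hyaluronan receptor gene Cd44 at -0.04 ± 0.01 (SE, limma adjusted p = 0.381). Among 10 further proteoglycans and tenascins 0 passed, with 1 lower at an unadjusted p below 0.05, Cspg4, at -0.07 ± 0.02 (SE, limma adjusted p = 0.307). The second of that list was Tnn at -0.03 ± 0.01 (SE, limma adjusted p = 0.503). Over all measured genes the differences ran from -0.04 to 0.15 in the hyaluronan list and from -0.09 to 0.03 in the other.

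Of 18 receptors and ligands of the members 0 passed, and an unadjusted p below 0.05 was reached by 1 higher gene and 2 lower genes. Rtn4rl1, a Nogo receptor homologue that binds chondroitin sulphate proteoglycans, had a difference of -0.13 ± 0.03 (SE, limma adjusted p = 0.108). Ptn, the pleiotrophin gene whose product binds Ptprz1, had one of -0.06 ± 0.02 (SE, limma adjusted p = 0.373). Of 18 measured proteases and inhibitors 0 passed, and an unadjusted p below 0.05 was reached by 3, all higher. Plat, tissue plasminogen activator, stood at 0.21 ± 0.05 (SE, limma adjusted p = 0.0890) and Mmp16, a membrane-type matrix metalloprotease, at 0.20 ± 0.06 (SE, limma adjusted p = 0.235). Plat passed in 2 of 23 alternatives. The other ADAMTS genes on the list did not pass.

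Of 13 spondins, thrombospondins and SPARC genes 0 passed, with 1 higher (Rspo2, 0.05 ± 0.02, limma adjusted p = 0.351) and 1 lower (Rspo1, -0.05 ± 0.02, limma adjusted p = 0.391) at an unadjusted p below 0.05. Of 17 laminins, collagens and basement membrane genes 0 passed. An unadjusted p below 0.05 was reached by 5, all higher, beside 10.7% of all probe sets, with a list median of 0.029. The laminin genes Lamb1 and Lamb2 stood at 0.11 ± 0.03 (SE, limma adjusted p = 0.166) and 0.09 ± 0.03 (SE, limma adjusted p = 0.167). This list's mean spanned 6.06 to 6.11 in WT and 6.12 to 6.17 in cKO, without overlap. It averaged 6.09 in WT and 6.13 in cKO, and 6 of the 17 genes lay below the median level. This mean was singled out after the values were seen, and the means of every other list of matrix genes overlapped. The endothelial and pericyte markers given above are set beside this list, and their part was not tested.

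**Figure D4:**
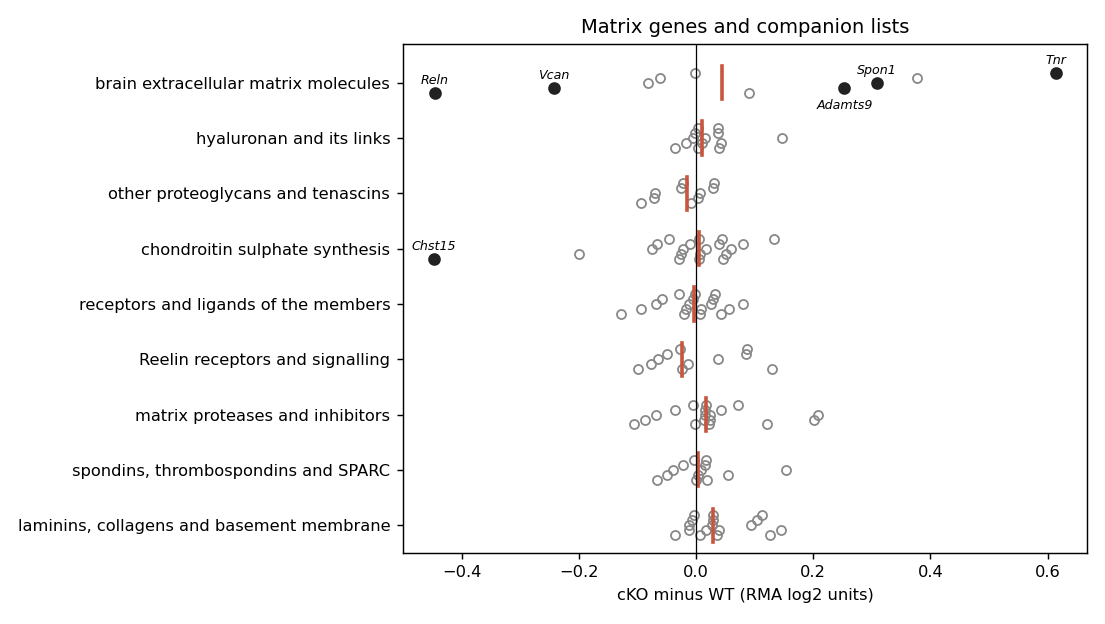
Difference between cKO and WT in RMA log2 units for the 10 matrix genes (top row) and the 120 measured genes of 8 lists of other matrix genes, 1 point per gene. Filled points passed the threshold over all probe sets and are named, open points did not, and red bars are list medians. Chst15 at -0.45 is the 1 filled point outside the top row.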

How the data were processed

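RNA from 12 striata was measured on 1 array each. The deposited values are RMA log2 expression, per the submitters' processing notes. RMA corrects background, gives the arrays a shared distribution and summarises probes, so a change common to all genes would not be visible, and differences of dim genes are compressed. The scanner, software and build are not given in the sources used here. Symbols came from the platform annotation, updated through RefSeq (GRCm38.p6): 24674 of 25428 probe sets had 1, 0 had several and 754 had none. All 12 columns were matched to samples by name.

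The genotype comparison used limma 3.58.1 under R 4.3.3 (lmFit, eBayes, two-sided, no covariates) over all probe sets. The number of arrays limits the precision. Correlations used two-sided permutations within groups (100000 resamples, smallest possible p 1e-05) in Python 3.11.15. Both procedures were tested on simulated data. The members and lists were chosen with earlier results of these data known. Genes named beyond the members and Foxp1 are, per list, at most 4 past the threshold, by size of change, or, if none passed, 2 by smallest p, and the 2 genes most correlated with each member. Alternatives covered normalization, dim probe sets, the prior, array weights, covariates, the threshold, the replicate number as a block and leaving out arrays.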

Additional observations from a re-analysis of the deposited data

Results flagged for a closer look

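Groups of 6 arrays were searched for a single array that stood apart from the others (gap over range above Dixon's 95% value of 0.625), which chance gives in about 1 of 20 groups. Of 72 groups searched, 3 met it. Ncan in cKO replicate 6 read 10.99, against 11.26 for the nearest array, and without that array the difference of Ncan was -0.0098. Lamb2 in cKO replicate 4 read 5.74, against 5.80 for the nearest. The mean of the choroid plexus and ependyma markers in cKO replicate 1 was 6.24, against 5.59 for the nearest, through Ttr alone at 9.96. Without cKO replicate 1 the same 5 members passed.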

How the results depend on the processing

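The calls of Reln, Tnr, Vcan and Adamts9 held in each of the 23 alternatives except the replicate block, where Adamts9 alone passed, and Spon1 varied as given above. No member that passed changed direction. Bcan, at -0.0026, changed sign with the cortical (0.0083) and the oligodendrocyte covariate (0.011) and ranged from -0.058 to 0.028 when single arrays were left out. Same-numbered arrays did not deviate together (r from -0.22 to 0.16 over 6 pairs, 0 of 6 WT arrays closest to their own number). This description of 6 pairs cannot settle whether the numbers pair the embryos. In the replicate block the limma adjusted p was 0.0584 for Reln, 0.0793 for Tnr and 0.0887 for Vcan. With the replicate block, 64 probe sets passed, 24 higher and 40 lower, and 1 member.

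The total of 185 was 278 (118 higher) with dim probe sets left out, 104 (41 and 63) with the cortical covariate and 61 (19 and 42) at an adjusted p below 0.01. Without WT replicates 3 and 6, which resembled their group least (an alternative chosen after seeing the data), 45 were higher. Leaving out single arrays gave 106 to 227 in all, 39 to 93 higher and 66 to 134 lower, 4 or 5 members, 1 or 2 companion genes and 0 to 2 correlated pairs. The second companion gene was Plat with dim probe sets left out (2 in all) or without WT replicate 3, and Ust without WT replicate 1. Correlated pairs numbered 0 with Spearman's rho and without WT replicate 6 or cKO replicate 6, and 2 without WT replicate 5. The causes were not tested.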
